A study of Mus musculus with 20 samples.

Results

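The 9 genes described here encode EF-hand calcium buffers and sensors of neurons outside the family of neuronal calcium sensor 1: the buffers calbindin (Calb1), calretinin (Calb2) and parvalbumin (Pvalb), the calcium-binding proteins Cabp1, Cabp7 and Caln1, and the NECAB proteins Necab1, Necab2 and Necab3. They were chosen by symbol, as genes listed under these names in both count tables, and all 9 were found among the 17148 genes that the tables share. RNA was taken from frontal cortex and hippocampus of C57Bl6/J mice, either wild type (Ncs1+/+) or Ncs1-/-, and sequenced in 20 libraries. Each combination of genotype and region had 5 libraries. The strain background is common to all groups, and no treatment is named. The sources used here do not give age, sex or the deleted part of Ncs1. Nor do they state that each library is a different mouse, so the spread behind the p-values is that between libraries and may be partly technical.

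EF-hand proteins bind calcium through a helix-loop-helix motif. Calbindin, calretinin and parvalbumin are abundant cytosolic proteins that take up calcium after it enters a neuron and shape the time course of its signal, and they are the classical markers of GABAergic interneuron classes, with calbindin also filling granule cells of the dentate gyrus. Cabp1, whose long form is caldendrin, is related to calmodulin and modulates inositol trisphosphate receptors and voltage-gated calcium channels. Caln1 and Cabp7 encode the calneurons, membrane-anchored proteins of the Golgi apparatus that bind phosphatidylinositol 4-kinase beta, the kinase that neuronal calcium sensor 1 also binds. NECAB proteins carry an EF-hand domain near the N-terminus, and NECAB2 binds the adenosine receptor encoded by Adora2a and the metabotropic glutamate receptor mGlu5.

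RefSeq promoters of build GRCm38.p6, the 250 bases before the annotated start, were at hand for 6 of the 9 genes. Promoters of Cabp7, Necab3 and Cabp1 are shown because these sensors had the largest regional differences of those 6, Cabp7 higher and the other two lower in hippocampus. Each is written 5′ to 3′ on the gene's own strand, which is the minus strand for these genes, and capitals mark the GC box GGGCGG or its reverse complement.
Cabp7 promoter: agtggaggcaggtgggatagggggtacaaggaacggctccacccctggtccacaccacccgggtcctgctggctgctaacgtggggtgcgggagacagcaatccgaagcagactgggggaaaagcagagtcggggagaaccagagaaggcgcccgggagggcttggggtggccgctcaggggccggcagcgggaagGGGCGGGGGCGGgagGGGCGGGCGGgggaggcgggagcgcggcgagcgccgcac
Necab3 promoter: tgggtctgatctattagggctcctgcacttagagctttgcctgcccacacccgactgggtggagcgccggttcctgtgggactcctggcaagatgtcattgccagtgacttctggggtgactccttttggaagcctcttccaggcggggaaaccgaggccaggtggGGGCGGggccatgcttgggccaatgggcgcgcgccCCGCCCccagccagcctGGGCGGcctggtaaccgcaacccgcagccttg
Cabp1 promoter: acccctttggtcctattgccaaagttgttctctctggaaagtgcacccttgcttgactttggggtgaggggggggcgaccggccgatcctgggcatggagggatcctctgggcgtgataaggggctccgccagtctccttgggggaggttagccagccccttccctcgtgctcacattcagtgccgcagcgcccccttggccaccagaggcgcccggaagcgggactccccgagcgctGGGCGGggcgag
These windows lie at chr11:4747180-4747429, chr2:154558854-154559103 and chr5:115194382-115194631. Searched on both strands, the GC box was found 4 times before Cabp7, where neighbouring matches share letters, 3 times before Necab3 and 1 time before Cabp1. It was absent from the windows of Pvalb, Caln1 and Necab2, and 32.7% of the 27025 promoters of this length held at least 1. The Cabp7 window had the highest GC content of the 6, at 72.4%, against a median of 52% over those promoters. Neither the cyclic AMP response element TGACGTCA, found in 1.56% of promoters, nor the TATA box TATAAA, found in 12.9%, was in any of the 6 windows. At least 1 E-box (CANNTG), which 66.2% of promoters hold, lay before Cabp7, Necab3, Caln1 and Necab2. These matches are descriptions of letters in a window, and the promoter with most GC boxes belonged to the gene that was higher in hippocampus while the next belonged to one that was lower.

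Total counts ranged from 16.6 M to 34.6 M per library, with a median of 21.0 M, and the lowest count of any of the 9 genes in a library was 111. Ncs1 checks the genotype labels: it was at 369 ± 18.1 CPM (counts scaled to library size) in wild-type and 259 ± 3.33 CPM in knockout cortex, and at 439.9 ± 17.6 and 299 ± 21.6 CPM in hippocampus (SD, n = 5 each), without overlap between genotypes. Markers were set against the tissue labels. Of 8 dentate granule cell markers 7 were higher in hippocampus in each genotype, and of 12 tested cortical layer markers 9 were lower and 3, Scnn1a, Fezf2 and Bcl11b, were higher. All 10 markers of striatal projection neurons were lower in hippocampus, and their summed level was 854 to 1346 CPM in cortex of wild type, 881 to 1613 CPM in cortex of knockout, against 216 to 274 CPM in hippocampus. Choroid plexus markers summed to 3656 CPM in knockout hippocampus replicate 2, 2372 in wild-type hippocampus replicate 4 and 422 in knockout hippocampus replicate 4, but to at most 66.0 CPM in the other hippocampus libraries. In cortex they reached 266 CPM in knockout replicate 1 and at most 19.3 CPM elsewhere. Markers were counted only where both count tables list them, which left 12 of the 13 cortical layer genes. All cortex library names end in one lane and all hippocampus names in another, so region and lane cannot be told apart.

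The first question was how the 9 genes differ between hippocampus and cortex. In wild type 7 of the 9 passed an adjusted p of 0.05 in edgeR's quasi-likelihood test, where 39.5% of all 14849 tested genes did. Cabp7, Calb2 and Necab2 were higher in hippocampus (18.8% of all genes were higher) and Necab3, Cabp1, Necab1 and Pvalb were lower (20.7% of all genes were lower). Calb1 and Caln1 did not pass. In knockout libraries, which share none with the wild-type contrast, the same 7 genes passed in the same directions, where 38.8% of all 15032 tested genes passed, 19.2% higher and 19.6% lower. The median size of the log2 fold change over the 9 genes was 0.91 in wild type and 0.92 in knockout, against 0.18 and 0.19 over all tested genes. The 9 genes were chosen with earlier results of these data known, so this excess does not describe EF-hand genes in general. Groups of 5 libraries did not overlap for 6 of the 9 genes in wild type, where 29.4% of all genes did not overlap, and for 7 of the 9 in knockout, where the share was 29.6%. RNA of a whole tissue does not tell fewer cells of a type from less RNA per cell.

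**Figure D1:**
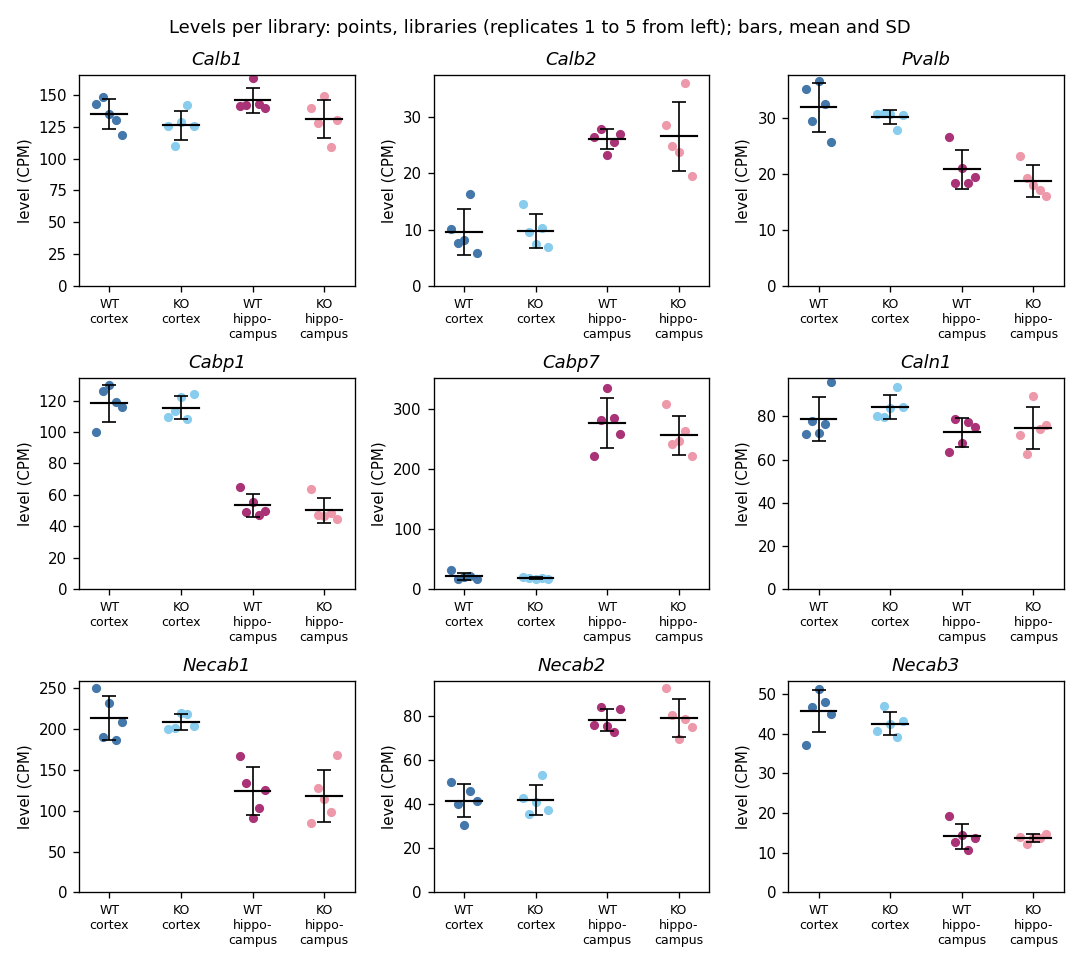
Levels of the 9 genes in CPM (vertical axes, from 0) in the 20 libraries, by group; points are libraries, the horizontal bar is the mean and the whiskers the SD of 5 libraries. Cabp7, Calb2 and Necab2 lie higher in both hippocampus groups, Cabp1, Necab1, Necab3 and Pvalb lie lower, and within each region the genotypes overlap for every gene.

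Among the buffers, calretinin had the largest regional difference. Calb2 was at 10.1, 7.57, 8.20, 16.3 and 5.78 CPM in wild-type cortex and at 26.4, 27.9, 23.3, 25.7 and 27.1 CPM in wild-type hippocampus, in replicates 1 to 5. In knockout libraries it was at 14.5, 9.58, 7.38, 10.3 and 6.89 CPM in cortex and 28.6, 24.9, 23.9, 36.02 and 19.5 CPM in hippocampus. Every hippocampus library lay above every cortex library of its genotype, although the cortex values spread widely, with wild-type replicate 4 and knockout replicate 1 the highest. The log2 fold change was 1.44 (SE 0.20, 2.71-fold, edgeR adjusted p = 8.79e-05) in wild type and 1.45 (SE 0.20, 2.73-fold, edgeR adjusted p = 5.99e-05) in knockout. Calretinin is found in interneurons of cortex and hippocampus and in mossy cells of the mouse hilus. Of 6 other markers of vasoactive intestinal peptide and calretinin interneurons, 1 was higher and 4 were lower in hippocampus in each genotype, and their sum was 188 to 230 CPM in wild-type hippocampus against 347 to 428 CPM in wild-type cortex, and 165 to 239 against 313 to 428 CPM in knockout. Most of this difference was that of Penk, which encodes proenkephalin and is also abundant in striatal neurons, at 21.8 ± 2.69 CPM in wild-type hippocampus and 179.8 ± 47.9 CPM in wild-type cortex (SD, n = 5 each). Cck, with the other high level of the list, was at 156 ± 12.6 and 157 ± 16.6 CPM (SD, n = 5 each). The 5 mossy cell markers, of which Drd2 is also on the striatal list, summed to 49.6 to 61.2 CPM in wild-type hippocampus and 79.6 to 98.1 CPM in wild-type cortex, with 2 higher and 2 lower. In knockout the sums were 53.0 to 66.7 and 74.4 to 96.4 CPM, with 2 higher and 1 lower. Ajap1 made up most of each of these sums, at 49.2 ± 4.67 CPM in wild-type hippocampus and 58.4 ± 5.96 CPM in wild-type cortex (SD, n = 5 each). Drd2 was at 2.30 and 25.2 CPM in the same order. Ajap1 and Drd2 were the 2 that were lower in wild type, and in knockout only Drd2 was lower. The others, Csf2rb2, Glipr1 and Nmb, had higher means in hippocampus. They were at 2.44, 0.995 and 1.09 CPM in wild-type hippocampus and 0.532, 0.391 and 0.741 CPM in wild-type cortex. The part of these cells in the Calb2 difference was not tested.

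Parvalbumin, the buffer of fast-spiking basket cells, was lower in hippocampus. Pvalb was at 35.1, 29.6, 36.7, 32.6 and 25.7 CPM in wild-type cortex and 26.7, 18.5, 21.1, 18.5 and 19.5 CPM in wild-type hippocampus. In knockout the values were 30.8, 30.9, 30.7, 27.9 and 30.6 CPM in cortex and 23.3, 19.2, 18.1, 17.2 and 16.01 CPM in hippocampus. In wild type hippocampus replicate 1 lay above cortex replicate 5, so the groups overlapped by 1 library, and in knockout they did not overlap. The level fell by 0.63 on the log2 scale in wild type (SE 0.12, 1.55-fold lower, edgeR adjusted p = 7.88e-04) and by 0.68 in knockout (SE 0.09, 1.60-fold lower, edgeR adjusted p = 4.75e-05). General markers of GABAergic neurons moved with it: Gad1, Gad2 and Slc32a1 were all lower in hippocampus in both genotypes, with sums of 598 to 661 CPM in wild-type hippocampus against 716 to 972 CPM in wild-type cortex, and of 573 to 695 against 756 to 898 CPM in knockout. Of 7 other markers of parvalbumin interneurons, 4 were lower and 1 was higher in each genotype, and their sum was 373 to 426 CPM over the hippocampus libraries and 469 to 529 CPM over the cortex libraries.

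Both interneuron buffers were therefore also expressed relative to Gad1, Gad2 and Slc32a1 in the same library, as log2 CPM minus the mean log2 CPM of those genes. Pvalb relative to them was -2.83 ± 0.32 in wild-type cortex and -2.98 ± 0.17 in wild-type hippocampus (SD), a difference of -0.15 (two-sided exact permutation p = 0.349). In knockout the difference was -0.20 (two-sided exact permutation p = 0.206). Neither passed, and with Gad1 alone as the reference both did, at -0.40 and -0.48, with adjusted exact permutation p-values of 0.0476 and 0.0423. Calb2 relative to the same genes was -4.63 ± 0.48 in wild-type cortex and -2.64 ± 0.13 in wild-type hippocampus (SD), and it was higher in hippocampus by 1.99 in wild type and by 1.96 in knockout. Each had a two-sided exact permutation p of 0.00794, the smallest that 252 arrangements can give, and an adjusted p of 0.0317 over the 8 such comparisons. The 4 comparisons of genotypes in this measure did not pass, with differences from -0.15 to 0.03. Gad1, Gad2 and Slc32a1 mark GABAergic neurons in general, not interneurons alone, and striatal markers were higher in the cortex libraries, as given above. The part of striatal tissue in this reference was not tested.

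Calbindin did not pass the regional test in either genotype. Calb1 ranged from 118 to 148 CPM in wild-type cortex and from 139.7 to 163 CPM in wild-type hippocampus, and from 109.8 to 142 and 109 to 149 CPM in knockout. All 4 groups overlapped, although 4 of the 5 wild-type hippocampus libraries lay within 3 CPM of each other. The log2 fold change was 0.10 with a 95% interval of -0.04 to 0.24 in wild type and 0.06 with an interval of -0.12 to 0.23 in knockout (edgeR adjusted p = 0.224 and 0.610). The markers of dentate granule cells, cells that hold much calbindin, were higher in hippocampus for 7 of 8 in each genotype. Their median log2 fold change was 3.76 in wild type and 3.52 in knockout. Striatal markers, as given above, were lower in hippocampus. The part of either cell type in the Calb1 levels was not tested.

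Of the calmodulin-related sensors, Cabp7 differed most between regions. It was at 31.7, 16.8, 19.97, 21.2 and 16.2 CPM in wild-type cortex and 222, 282, 336, 286 and 258 CPM in wild-type hippocampus. In knockout it was at 20.8, 18.02, 16.9, 18.8 and 16.6 CPM in cortex and 308, 242, 247, 264 and 223 CPM in hippocampus. The lowest hippocampus library stood far above the highest cortex library, which was wild-type replicate 1. Cabp7 was 13.03-fold higher in wild type (log2 fold change 3.70, SE 0.17, edgeR adjusted p = 5.51e-09) and 14.1-fold higher in knockout (log2 fold change 3.82, SE 0.09, edgeR adjusted p = 1.26e-11). A larger fold change in either direction was found for 43 of the 14849 tested genes in wild type and 42 of 15032 in knockout. The gene lies on chromosome 11 from 4736893 to 4747179 of the minus strand, and 777 bases of it overlap Zmat5 on the other strand. Zmat5 was at 7.07 ± 0.537 CPM in wild-type cortex and 7.52 ± 0.679 CPM in wild-type hippocampus (SD, n = 5 each). Whether counting used strand is not stated in the sources used here, and without it the reads of such a pair cannot be told apart.

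Dentate granule cell markers also stood higher in hippocampus, where their sum was 553 to 878 CPM in wild-type libraries and 635 to 882 CPM in knockout libraries, against 349 to 423 CPM in cortex. C1ql3 and Stxbp6 made up most of the cortex sum and differed little, at 228 ± 21.9 and 121 ± 10.1 CPM in wild-type cortex and 275 ± 26.7 and 129 ± 18.6 CPM in wild-type hippocampus (SD, n = 5 each). The other 6 markers had log2 fold changes of 2.89 to 7.53 in wild type and 2.83 to 7.37 in knockout, and the median over all 8 was 3.76 and 3.52. Wild-type hippocampus replicate 1 had the lowest sum and the lowest Cabp7, and replicate 3 the highest of both, whereas knockout hippocampus replicate 1 had the lowest sum and the highest Cabp7. The part of granule cells in the Cabp7 difference was not tested.

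Cabp1 went the other way. Its level was 99.8, 126, 130.0, 119 and 116 CPM in wild-type cortex and 65.2, 49.2, 55.4, 47.4 and 49.9 CPM in wild-type hippocampus. Knockout libraries had 109, 113, 123, 108 and 124 CPM in cortex and 64.03, 46.9, 46.5, 48.5 and 44.4 CPM in hippocampus. The regions did not overlap in either genotype, and replicate 1 was the highest hippocampus library in both. Cabp1 was 2.23-fold lower in hippocampus in wild type (log2 fold change -1.16, SE 0.09, edgeR adjusted p = 5.53e-07) and 2.30-fold lower in knockout (log2 fold change -1.20, SE 0.09, edgeR adjusted p = 2.12e-07). Counts per gene do not separate caldendrin from the shorter forms of Cabp1.

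Caln1, the other calneuron, did not pass the regional test in either genotype. In cortex it ranged from 71.8 to 96.1 CPM (wild type) and from 79.7 to 93.7 CPM (knockout), and in the same order from 63.4 to 79.03 and 62.5 to 89.5 CPM in hippocampus, with overlap between regions in both genotypes. Its log2 fold change was -0.13 (95% interval -0.31 to 0.06) in wild type and -0.18 (95% interval -0.35 to -0.00) in knockout, with edgeR adjusted p-values of 0.260 and 0.101. The knockout value lay near the threshold and passed when knockout hippocampus replicate 3 was left out, with a log2 fold change of -0.24 and an edgeR adjusted p of 0.0114, and with the replicate number as a block, at an edgeR adjusted p of 0.0398.

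The NECAB genes split between regions. Necab2 was at 50.3, 39.9, 30.6, 45.9 and 41.5 CPM in wild-type cortex and 76.0, 84.2, 75.7, 72.7 and 83.2 CPM in wild-type hippocampus. In knockout it was at 42.7, 35.8, 40.9, 53.3 and 37.4 CPM in cortex and 92.8, 80.7, 69.6, 78.97 and 75.1 CPM in hippocampus. No library of one region reached into the other. It was 1.88-fold higher in hippocampus in wild type (log2 fold change 0.91, SE 0.10, edgeR adjusted p = 1.39e-05) and 1.89-fold higher in knockout (log2 fold change 0.92, SE 0.10, edgeR adjusted p = 1.12e-05).

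Necab3, which is known to bind the adaptor protein APBA2, had the largest decrease of the 9 genes. Its level was 37.2, 46.8, 51.2, 48.1 and 44.98 CPM in wild-type cortex and 19.2, 12.8, 14.5, 10.6 and 13.6 CPM in wild-type hippocampus. Knockout cortex held 40.8, 46.95, 42.3, 39.2 and 43.2 CPM and knockout hippocampus 13.98, 12.1, 13.7, 13.8 and 14.7 CPM. The groups stood well apart in both genotypes. Necab3 was 3.27-fold lower in hippocampus in wild type (log2 fold change -1.71, SE 0.13, edgeR adjusted p = 4.48e-07) and 3.10-fold lower in knockout (log2 fold change -1.63, SE 0.07, edgeR adjusted p = 7.52e-10). It lies on chromosome 2 from 154544405 to 154558853 of the minus strand, the chromosome that also carries Ncs1. The genes 1700003F12Rik and Actl10 overlap it on the other strand, with mean counts per library of 3.80 and 33.1 in cortex and 3.1 and 8.6 in hippocampus. Actl10 thus had fewer counts in hippocampus, like Necab3. With the strand setting unknown, reads of these genes cannot be told apart where they overlap, and their part was not tested.

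Necab1 was lower in hippocampus, where it spread widely. It was at 251, 191, 232, 186 and 209 CPM in wild-type cortex and 167, 134, 91.01, 104 and 126 CPM in wild-type hippocampus. In knockout it was at 200.03, 201, 219.7, 219 and 204 CPM in cortex and 84.5, 127, 114, 98.4 and 168 CPM in hippocampus. The regions did not overlap, but the highest hippocampus libraries, wild-type replicate 1 and knockout replicate 5, came closest to the cortex range. Necab1 was 1.73-fold lower in wild type (log2 fold change -0.79, SE 0.14, edgeR adjusted p = 6.21e-04) and 1.76-fold lower in knockout (log2 fold change -0.81, SE 0.14, edgeR adjusted p = 4.59e-04). Caln1 and Necab1 also have overlapping genes on the other strand, A330070K13Rik and Gm11837, with mean counts per library of at most 26.4.

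Striatal markers, as given above, were higher in the cortex libraries, and Pvalb, Cabp1, Necab1 and Necab3 were higher there too. Within wild-type cortex the library with the highest striatal sum, replicate 5 at 1346 CPM, had the lowest Calb1, Calb2, Pvalb and Cabp7 and the highest Caln1. Knockout cortex replicate 4, with the highest sum at 1613 CPM, had the lowest Pvalb, Cabp1 and Necab3 and the highest Calb1, Caln1 and Necab2. The part of striatal tissue in the regional differences was not tested. Without the 3 hippocampus libraries richest in the choroid plexus gene Ttr, the same count of 7 genes passed in each genotype. Those libraries were knockout replicates 2 and 4 and wild-type replicate 4, so the wild-type contrast lost only its replicate 4.

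**Figure D2:**
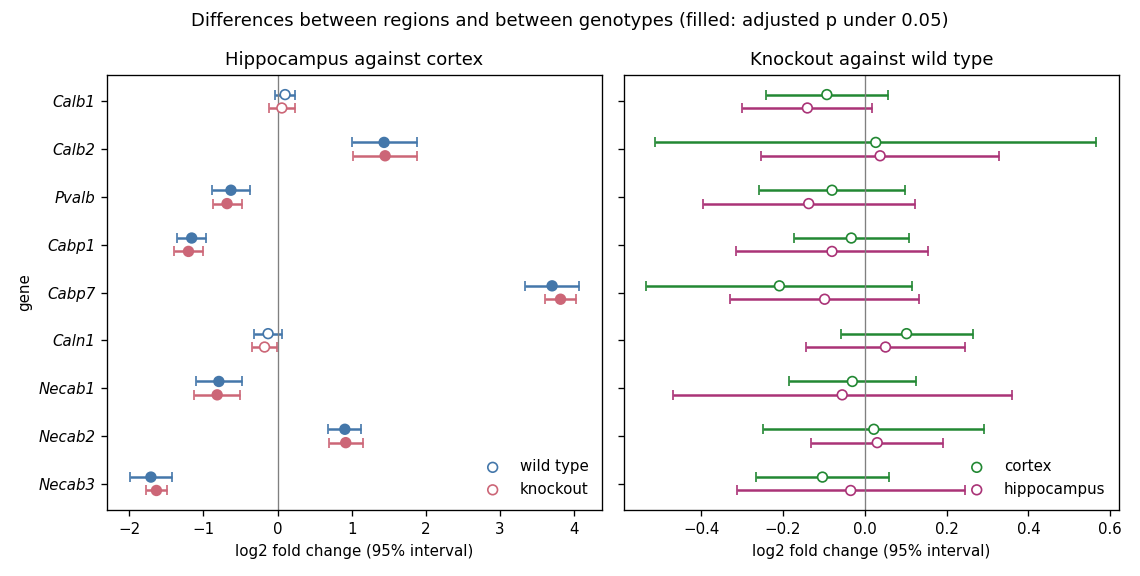
Log2 fold changes of the 9 genes with 95% intervals from edgeR's quasi-likelihood fit, for hippocampus against cortex (left, in wild type and knockout) and knockout against wild type (right, in cortex and hippocampus); filled points passed an adjusted p of 0.05, and the horizontal scales differ. The 7 genes that passed between regions have intervals clear of 0 in both genotypes, and every genotype interval includes 0.

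Levels can be ordered between genes only per length, so CPM was divided by the exonic length in kb. This length is the union of annotated exons, not that of the transcript forms present. The library spread does not cover an error in it. In wild-type cortex Necab1 stood first at 40.8 ± 5.23 CPM per kb (SD, n = 5), followed by Pvalb at 30.7 ± 4.26 and Calb1 at 27.8 ± 2.39. Cabp1, Necab2 and Necab3 came next, between 17.9 and 20.3 CPM per kb. Cabp7, Caln1 and Calb2 were last, at 8.06, 7.52 and 5.50 CPM per kb. Library ranges overlapped between neighbours within these 3 sets except between Necab1 and Pvalb, so the order inside the second and the last set is not separated by the spread. In wild-type hippocampus Cabp7 moved from the seventh place to the first, at 105 ± 15.8 CPM per kb (SD, n = 5), which was 41.6% of the sum over the 9 genes. Necab2 followed at 37.4 ± 2.41 and Calb1 at 30.1 ± 2.003 CPM per kb. Necab1 at 23.7 ± 5.58 overlapped with Calb1 above and with Pvalb at 20.02 ± 3.30 below. Calb2, Cabp1, Caln1 and Necab3 came last, at 14.96, 9.16, 6.92 and 5.54 CPM per kb, and of these only Caln1 and Necab3 overlapped. The sum over the 9 genes was 178 ± 10.2 CPM per kb in wild-type cortex and 253 ± 10.7 in wild-type hippocampus (SD, n = 5 each), with 172 ± 5.16 and 239.7 ± 16.7 in knockout. In knockout the order was the same in hippocampus, and in cortex Necab2 and Cabp1 changed places, as did Caln1 and Cabp7, all between neighbours whose ranges overlapped.

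**Figure D3:**
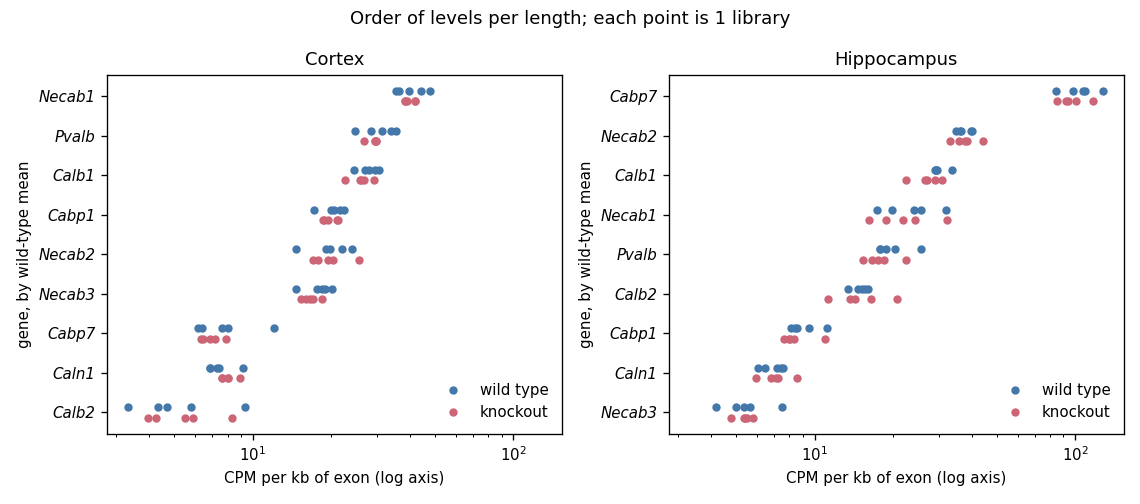
Levels per length of the 9 genes, in CPM per kb of exon on a log axis, in cortex (left) and hippocampus (right); each point is 1 library, and genes are ordered from the bottom by their wild-type mean. Cabp7 is among the lowest genes in cortex and stands alone at the top in hippocampus, where its wild-type mean is 105 CPM per kb.

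The second question was whether these genes differed between Ncs1-/- and wild-type libraries. Ncs1 RNA was lower but still present in the knockout libraries, as given above, and these data do not measure its protein. None of the 9 passed in cortex, where 0.027% of all 14823 tested genes did, and none passed in hippocampus, where 0.0266% of 15042 did (edgeR's quasi-likelihood test, adjusted p of 0.05). At an unadjusted p under 0.05 the count was also 0 of 9 in both regions, against 2199 and 568 of all genes, and DESeq2 and limma-voom called 0 of 9. No gene of the 9 had genotypes without overlap, where 2.28% of all genes had none in cortex and 0.452% in hippocampus. The largest difference in cortex was that of Cabp7, with a log2 fold change of -0.21 (SE 0.15, 95% interval -0.53 to 0.12, edgeR adjusted p = 0.530). Wild-type replicate 1 holds the highest Cabp7 value there, and the log2 fold change without that library was -0.02. In hippocampus Calb1 had the largest difference, a log2 fold change of -0.14 (SE 0.07, 95% interval -0.30 to 0.02, edgeR adjusted p = 0.991), and 3 of 5 knockout libraries lay below every wild-type library.

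The intervals say how large a difference these libraries leave possible. They were narrowest for Cabp1 in cortex, from -0.17 to 0.11 on the log2 scale, and widest for Calb2 in cortex, from -0.51 to 0.57, which spans 0.701-fold to 1.48-fold. For Pvalb they ran from -0.26 to 0.10 in cortex and from -0.40 to 0.12 in hippocampus. For the calneuron Caln1 they ran from -0.06 to 0.26 and from -0.14 to 0.25, and for Necab1 from -0.18 to 0.12 and from -0.47 to 0.36. Of the 9 genes 6 were lower and 3 higher in knockout in each region, and their median log2 fold change was -0.03 in cortex and -0.06 in hippocampus, where all tested genes had 0.00 and 0.01. Calb2, Caln1 and Necab2 were the higher ones in both regions, none past the test.

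The difference between the genotype effects of the regions was tested as an interaction over all 20 libraries. It passed for 0 of the 9 genes and for 0% of the 15310 tested genes (edgeR adjusted p = 0.9998 for each of the 9), and at an unadjusted p under 0.05 it counted 0 of 9 and 214 of all genes. DESeq2 and limma-voom also called 0 of the 9. Cabp7 had the largest interaction, 0.10 on the log2 scale (SE 0.20, 95% interval -0.31 to 0.52), and Calb2 and Necab2 the smallest, 0.00 each with SE of 0.31 and 0.16.

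**Figure D4:**
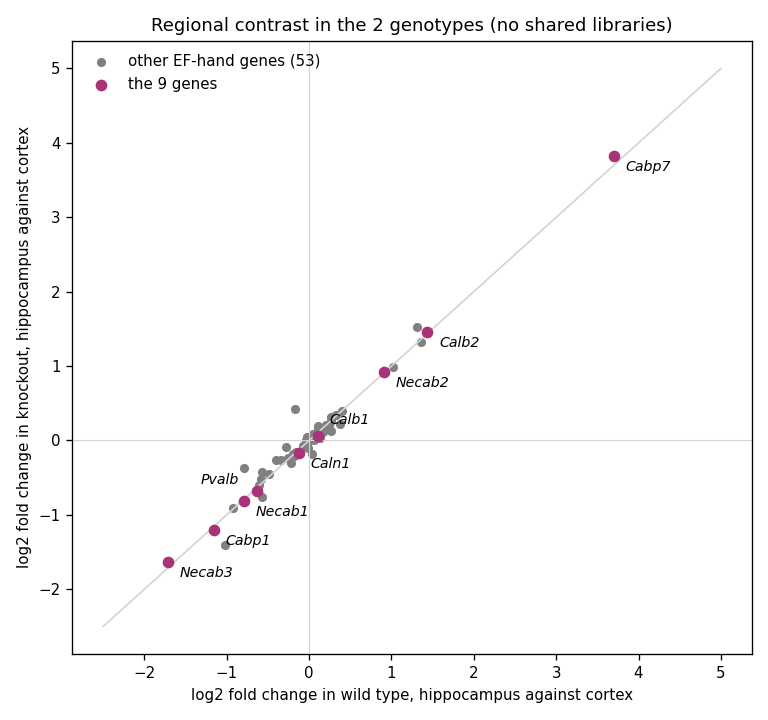
Log2 fold change between hippocampus and cortex in wild type (horizontal) and knockout (vertical), for the 9 genes (labelled) and 53 other EF-hand genes tested in both; the diagonal marks equal values, and the contrasts share no library. Cabp7 stands apart at 3.70 and 3.82, and the 9 genes lie on or close to the diagonal.

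Other genes of the EF-hand superfamily were taken from a list of 70, chosen with earlier results of these data known. Between regions 27 of 53 tested genes passed in wild type, 12 higher and 15 lower in hippocampus, a share of 50.9%, and 28 of 55 passed in knockout, 12 higher and 16 lower, where 39.5% and 38.8% of all tested genes passed. The median log2 fold change was 0.02 in wild type and 0.05 in knockout. Among the neuronal calcium sensors, the family of NCS1 itself, 3 of 10 were higher and 6 lower in each genotype. Hpca, which encodes the pyramidal neuron sensor hippocalcin, was higher with log2 fold changes of 1.36 (SE 0.10) and 1.33 (SE 0.09). Kcnip2, a subunit of A-type potassium channels, was higher by 0.40 in both, and its relative Kcnip3 was lower at -0.59 and -0.52. Ncald was lower at -0.40 and -0.26 and Vsnl1 at -0.49 and -0.45, in wild type and knockout. Calml4 was left out of the wild-type contrast by the filter on low counts and was higher in knockout, at 4.13 (edgeR adjusted p = 0.00506).

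Smaller groups of the list moved in part. S100a6 and S100a10 were the 2 of 8 tested S100 genes that passed, both lower, at -0.79 and -0.57 in wild type and at -0.36 and -0.42 in knockout. In the group listed as calcineurin B-like, Efhd2 was lower at -0.92 and -0.91, although its product, swiprosin 1, is outside the calcineurin B family. Chp2 was lower at -1.03 and -1.41. Tesc and Cib1 passed in wild type at -0.28 and 0.37 but not in knockout, at -0.09 and 0.22 (edgeR adjusted p 0.579 and 0.228). Ppp3r1, a regulatory subunit of calcineurin, passed in knockout at 0.17 and had 0.11 in wild type (edgeR adjusted p = 0.127). Of 6 penta-EF-hand genes Gca was lower at -0.60 and -0.61 and Capns1, the small calpain subunit, and Sri, sorcin, were higher at 0.33 and 0.15 in wild type and 0.34 and 0.17 in knockout. Rcn3 and Rcn1, reticulocalbins of the secretory pathway, went in opposite directions, at 1.02 and -0.57 in wild type and 0.98 and -0.76 in knockout. Among 11 mitochondrial EF-hand genes Rhot2 was higher at 0.27 and 0.26 and Micu3, a regulator of the calcium uniporter, lower at -0.19 and -0.18. Scgn, which encodes secretagogin, a relative of calbindin, had 1.31 (SE 0.55, edgeR adjusted p = 0.0756) in wild type and was called in knockout at 1.53 (SE 0.29). Scgn did not pass the filter on low counts within cortex, so the filter favoured a higher value in hippocampus. Between genotypes Ncs1 alone passed, at -0.51 in cortex and -0.55 in hippocampus, of 52 and 55 tested genes.

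Proteins that the 9 genes' products are reported to bind or regulate formed a list of 11 genes, and 9 passed between regions in wild type, 4 higher and 5 lower in hippocampus, and 8 in knockout, 4 in each direction, against the same 39.5% and 38.8% of all tested genes. Adora2a, which encodes the adenosine receptor that NECAB2 binds, was lower at -4.52 (SE 0.15) and -4.99 (SE 0.24), opposite to Necab2, and it is also one of the striatal markers. Grm5, the mGlu5 receptor, was higher at 0.38 and 0.37. Itpr1, the inositol trisphosphate receptor of the kind that CaBP1 modulates, was lower at -0.97 and -1.02, the direction of Cabp1. Trpc5, a cation channel regulated by CaBP1, was higher at 0.96 and 0.86. Pi4kb, the kinase bound by the calneurons, had 0.08 (edgeR adjusted p = 0.117) in wild type and passed in knockout at 0.12 (edgeR adjusted p = 0.0474). None of the 11 passed between genotypes in edgeR, where 2 in cortex and 1 in hippocampus had an unadjusted p under 0.05.

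Libraries of a group differed from each other in some of these genes together. Wild-type hippocampus replicate 1 was the highest of its group for Pvalb, Cabp1, Necab1 and Necab3 and the lowest for Cabp7 and Caln1. Knockout hippocampus replicate 1 was the highest for Pvalb, Cabp1, Cabp7 and Necab2 and the lowest for Necab1. In wild-type cortex, replicate 1 was the highest for Cabp7, Necab1 and Necab2 and the lowest for Cabp1, Caln1 and Necab3. After the group means were removed, Pearson's r over the 20 libraries was 0.66 between Pvalb and Cabp1, 0.67 between Cabp1 and Necab3 and -0.71 between Pvalb and Caln1. These are descriptions over libraries that share their groups and lanes. The widest spread was that of Calb2 in cortex, with a coefficient of variation of 42.2% in wild type and 31.0% in knockout, and the narrowest that of Pvalb in knockout cortex, 4.24%.

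**Figure D5:**
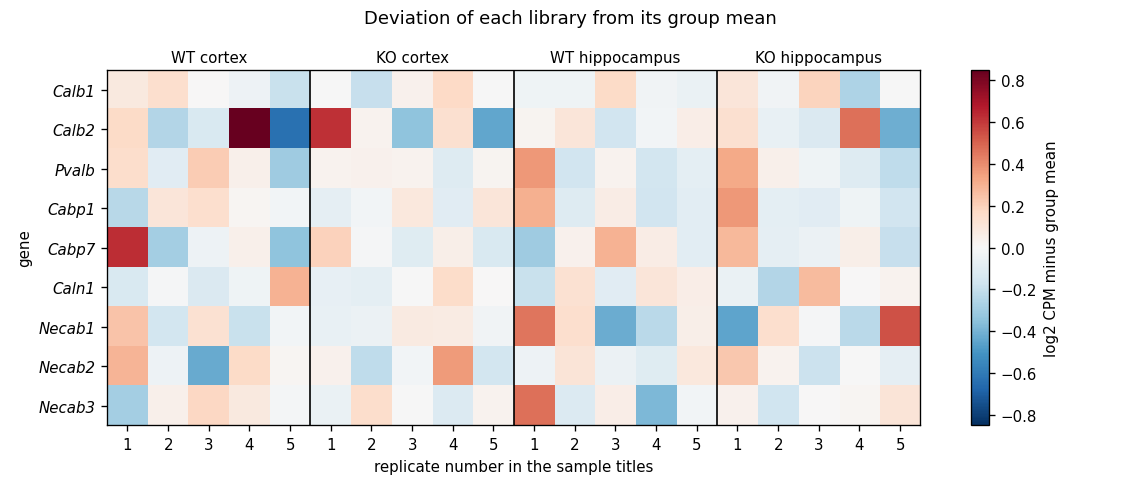
Log2 CPM of each of the 9 genes (rows) in each of the 20 libraries (columns, by group and replicate number) minus the mean of its group; red is above and blue below the group mean. Calb2 in cortex has the strongest colours, and Cabp7 in wild-type cortex replicate 1 follows.

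For each gene, the 2 genes most like it were named by Pearson's r of log2 CPM over the 20 libraries, among the 13988 genes whose mean reached 1 CPM. Most of these correlations carry the difference between regions, which the libraries share. Cabp7 was most like Rnf182 and St6galnac5, with r of 0.997 and 0.996. Necab3 was most like Chrdl1 and Garnl3 (0.992 and 0.991), Cabp1 most like Camk2n1 and Gm15631 (0.986 and 0.985). Necab2 followed Nnat and Npy2r (0.979 and 0.969), and Necab1 followed Igfbp6 and Tshz3 (0.962 and 0.961). Among the buffers, Pvalb was nearest to Nrsn1 and Dynll2 (0.971 and 0.966) and Calb2 to Tspan15 and Samd14 (0.960 each). Calb1 and Caln1, which did not differ past the test between regions, had lower values, 0.786 and 0.780 with Ppp1cb and Cadps2 for Calb1 and 0.871 and 0.863 with Hmbox1 and Ptchd4 for Caln1. Of the deviations from the group means, which do not carry region or genotype, those of Pvalb were most like Smim7 (0.911) and Cdc34 (0.892), and those of Necab2 most like Nnat and Hpcal1 (0.863 and 0.818), the latter a neuronal calcium sensor.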

How the data were processed

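Total RNA of frontal cortex and hippocampus was extracted from frozen mouse tissue with a column kit and sequenced with Illumina libraries, per the labels' protocols. Sample titles gave the group and the replicate number. Each region has 1 table of expected counts per gene as deposited, unscaled; per library, 22.6% to 27.3% of the entries differ from a whole number by over 0.001. STAR 2.7.3a, Partek and mm10 are named per the submitters' processing notes. For the annotation and the strand setting, the sources used here give nothing. The lowest chi-square per degree of freedom over 40 library pairs within groups was 3.55, and every library was kept as its own sample. Coordinates are those of the deposited tables, counted from 1, with the last base taken as 1 before the deposited stop, since that matched RefSeq GRCm38.p6 ends for 63.4% of genes against 4.17% for the stop itself.

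Rounding gave whole numbers for edgeR 4.0.16 in R 4.3.3 (TMM scaling, filterByExpr, quasi-likelihood tests, Benjamini-Hochberg adjustment at 0.05 over all tested genes). All 9 genes passed the filter in each comparison. Genotypes were compared within regions, regions within genotypes, and their interaction over 20 libraries. Intervals are 95% intervals of the log2 fold change from that fit. A prior count of 2 was added before levels were put on the log2 scale. Exonic length was the union of exons in the GENCODE annotation, by symbol. Exact permutation tests used SciPy 1.17.1. Alternatives were other scaling, other filters, DESeq2 1.42.0, limma-voom (limma 3.58.1), the replicate number as a block, all libraries in 1 fit, each library left out, 3 libraries with the most Ttr left out, and Gad1 alone as reference. The fit was tested on simulated data with 50 genes changed per fold. Over 14823 simulated cortex genes it found 16 of those changed 1.2-fold, 36 of those changed 1.5-fold and 47 of those changed 2-fold. For the wild-type regional contrast, over 14849 genes, these numbers were 14, 39 and 44. Unchanged genes made up 7 of 154 calls in the simulated cortex contrast and 12 of 156 in the regional one. In the real data 4 genes passed between genotypes in cortex and 5861 between regions in wild type. The adjusted threshold therefore fell elsewhere, and the simulated shares do not give the power of the real comparisons.

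The 9 genes and the gene lists were chosen with earlier results of these data known, and the promoter motifs and the 3 promoters shown were chosen after the values were seen. Genes named are the 9, Ncs1, up to 2 genes per direction and comparison with the smallest adjusted p in each group of the EF-hand and partner lists, the 2 genes most like each of the 9, overlapping genes, and up to 2 leading markers per list. Gad1, Gad2 and Slc32a1 are the reference of the relative measure. Exceptions, named after their values were seen, are Scnn1a, Fezf2, Bcl11b, Fibcd1, Csf2rb2, Glipr1 and Nmb. The same holds for Ttr, Chp2, Ncald, Vsnl1, Tesc, Cib1, Ppp3r1, Capns1, Sri, Pi4kb and Scgn in contrasts where the rule did not name them.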

Additional observations from a re-analysis of the deposited data

Results flagged for a closer look

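In a group of 5 libraries, 4 of the 36 combinations of gene and group had 1 library farther from its neighbour than Dixon's criterion at 95% allows, and chance alone marks about 1 in 20. Calb1 was at 163 CPM in wild-type hippocampus replicate 3, above the other 4 libraries at 139.7 to 142 CPM. Cabp1 was at 64.0 CPM in knockout hippocampus replicate 1, where the others lay between 44.4 and 48.5 CPM. Caln1 was at 96.1 CPM in wild-type cortex replicate 5, above 71.8 to 77.9 CPM in the others. Pvalb was at 27.9 CPM in knockout cortex replicate 4, below 30.6 to 30.9 CPM in the others.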

How the results depend on the processing

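Between regions, 7 of the 9 genes passed in wild type under all alternatives run, and 7 or 8 in knockout, the eighth being Caln1 with the replicate block or without knockout hippocampus replicate 3. Between genotypes and for the interaction the count stayed at 0 under all alternatives run for these comparisons, which for the genotype comparisons did not include leaving out the 3 Ttr-rich libraries, although the count over all genes did not: without wild-type cortex replicate 5, 563 genes passed in cortex, and DESeq2 called 135 there. Directions of differences that never passed did change. With limma-voom the knockout difference of Necab3 in hippocampus was 0.00263 and the interactions of Calb2 and Necab2 were -0.0721 and -0.0157. With the replicate block these interactions were -0.0319 and -0.00395, and without the 3 Ttr-rich libraries those of Calb1, Calb2, Caln1 and Necab2 were 0.0266, -0.148, 0.0452 and -0.0283. The cause was not tested. With 1 library left out, cortex genotype differences ranged from -0.0878 to 0.00283 for Cabp1, -0.16 to 0.30 for Calb2, -0.0770 to 0.0321 for Necab1 and -0.0819 to 0.0973 for Necab2. In hippocampus they ranged from -0.0980 to 0.130 for Calb2, -0.0199 to 0.106 for Caln1, -0.220 to 0.0701 for Necab1, -0.0417 to 0.0748 for Necab2 and -0.122 to 0.0965 for Necab3. Interactions ranged from -0.161 to 0.0290 for Cabp1, -0.0803 to 0.183 for Cabp7, -0.102 to 0.00641 for Calb1, -0.27 to 0.20 for Calb2, -0.14 to 4.67e-04 for Caln1, -0.196 to 0.0961 for Necab1, -0.0731 to 0.109 for Necab2, -0.0266 to 0.197 for Necab3 and -0.158 to 0.0412 for Pvalb. Relative to pan-GABAergic genes, the genotype differences of Calb2 ranged from -0.13 to 0.18 in cortex and -0.0684 to 0.0945 in hippocampus. Its regional differences ranged from 1.83 to 2.13 in wild type and 1.88 to 2.07 in knockout, and with 4 libraries against 5 the adjusted exact permutation p was 0.0635 throughout, since fewer arrangements exist. With Gad1 alone as reference the regional differences of Pvalb passed, at -0.40 and -0.48. The replicate numbers were not treated as pairs: same-numbered libraries of wild-type cortex and hippocampus deviated together with correlations of 0.08 to 0.37, each best with its own number, and those of knockout with -0.14 to 0.19, 3 of 5 best with their own. In each genotype 4 of 5 pairs were over 0.1 and 1 was not. With the block, 6629 and 6250 genes passed between regions in wild type and knockout, against 5861 and 5838 without it, and only the call of Caln1 changed among the 9 genes. The lowest count of any of the 9 genes in a library was 111, for Calb2 in cortex.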
